A study of Mus musculus with 51 samples.

Results

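EpCAM-high cells of the Krt5-SmoM2 mouse oesophagus were compared between 2 times, labelled 7w and 3w. They make up 8 of the 51 libraries of the series, 4 at each time, and were taken by their sample labels alone. Total RNA was sequenced from cells sorted on high surface EpCAM. Both times share the genotype Krt5-SmoM2, in which an active mutant of Smoothened is named with Krt5, a keratin of basal squamous cells, so neither time is an untreated control. The labels do not say from what event the weeks were counted, nor the strain, the age or the number of animals behind a library, and p-values therefore measure the spread between libraries, which may be technical. EpCAM-low SmoM2 cells of the same 2 times (4 libraries each) were used to ask whether a change was shared by the other gate. WT cells (6 libraries, CD1, EpCAM-low gate) and SmoM2 cells without a time label (6 libraries, CD1, EpCAM-high gate) are given as levels with no test, because their library sets differ.

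The 8 libraries held 6600018 to 8336606 counts each. The raw names begin with 11 in all 3w libraries and with 12 in all 7w libraries, so time and library set cannot be told apart. Sex moved with time as well. The 3w libraries 1 to 3 held Xist at 5559 to 5694 CPM (counts scaled to a common library total) and the Y-linked genes Ddx3y, Eif2s3y, Uty and Kdm5d at 0.13 to 0.44 CPM together. The 3w library 4 and all 7w libraries held these Y-linked genes at 276 and at 356 to 386 CPM, with Xist at 57.7 and at 5.93 to 13.2 CPM. Counts of the 3w library 4 were compared with those of the other 3w libraries by a chi-square divided by its degrees of freedom. It was 6.2 to 6.41, against 2.73 to 3.51 among the others. Among the 7w EpCAM-high libraries, which all held Y-linked counts, it was 3.85 to 6.95, a range that includes the values of the 3w library 4. The chi-square held all genes tested, Xist and the Y-linked genes included, so it is not separate from the difference in sex. It was not computed for autosomal genes alone. The value of the 3w library 4 comes last in each series of 3w values below. The share of counts from ribosomal protein genes was 3.08% ± 0.086 (SD, n = 4) at 3w and 2.76% ± 0.12 (n = 4) at 7w (exact permutation test, two-sided, p = 0.0286, the smallest possible; adjusted over 5 measures p = 0.0714). The number of genes with a count was 26664 ± 266 and 25295.5 ± 202, with the same p-values, and totals, the mitochondrial share and the share of the 100 most abundant genes gave p = 0.229 or more in the same exact test.

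In Hedgehog signalling, the receptor Ptch1 holds Smoothened in check until a ligand binds, and active Smoothened turns on the Gli transcription factors, and Gli1 and Ptch1 are themselves direct targets. SmoM2 escapes this check. The oesophagus of the mouse is lined by a stratified squamous epithelium whose basal cells carry Krt5, Krt14 and Trp63 and whose suprabasal cells carry Krt4 and Krt13.

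The sorted cells carried the basal markers at both times. Epcam stood at 333 ± 8.7 CPM at 3w and 288 ± 14 at 7w in the EpCAM-high gate, against 193 and 132 CPM on average in the EpCAM-low gate. Krt5, Krt14 and Trp63 were abundant in all 8 libraries, at 2230 CPM or more, 741 or more and 496 or more. The simple epithelial keratins Krt8 and Krt7 were nearly absent, at 0.138 to 0.96 and 0.147 to 1.44 CPM over the 8 libraries, and did not pass the filter on low counts. In the SmoM2 cells without a time label they stood at 4.21 ± 2.94 and 5.48 ± 3.55 CPM (SD, n = 6).

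Of 16091 autosomal genes tested, 8319 (51.7%) differed between 7w and 3w (edgeR quasi-likelihood test, adjusted p under 0.05). At 7w 4268 genes (26.5%) were higher and 4051 (25.2%) lower, and the median log2 change over all genes tested was 0.01. The changes were mostly small. An absolute log2 change of at least 1 was reached by 816 of the higher and 967 of the lower genes. With a term for Y-linked counts 6347 genes passed, and 6041 of the 8319 were among them, all in the same direction. That term was set by the 1 of 4 libraries in each gate at 3w that held Y-linked counts, since all 7w libraries held them. It is therefore a weak adjustment for sex, here and wherever it is used below. The changes also followed base composition: the median log2 change ran from -0.19 in the 1610 genes with the lowest GC share to 0.20 in the 1609 with the highest, and in the EpCAM-low gate from -0.26 to 0.16. With a correction for GC share 8177 genes passed, 7388 of them among the 8319.

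The Hedgehog targets Ptch1 and Gli1 rose from 3w to 7w in EpCAM-high cells. Ptch1 (ENSMUSG00000021466) stood at 766, 836, 902 and 868 CPM in the 4 libraries at 3w and at 1757, 1614, 1948 and 1771 CPM at 7w. Every 7w library was above every 3w library, as in 44.1% of all genes tested in one direction or the other. The log2 change was 1.01 ± 0.10 (SE, adjusted p = 2.65e-08). Gli1, the Gli factor that is also a target, stood at 104, 98.6, 122 and 101 CPM at 3w and at 143, 170, 173 and 182 CPM at 7w, a log2 change of 0.59 ± 0.10 (adjusted p = 3.62e-05). Gli2, the main activator among the Gli factors, stood at 85.0, 88.8, 99.6 and 91.4 CPM at 3w and at 146, 162, 165 and 192 CPM at 7w, a log2 change of 0.80 ± 0.10 (adjusted p = 7.26e-07). The libraries of the 2 times did not overlap for either gene. Gli3, mainly a repressor and the remaining Gli factor, overlapped between the times, at 17.5 to 25.4 CPM and 17.3 to 27.8 CPM.

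Gas1, a co-receptor that binds the ligand, rose from 8.63 ± 1.9 to 16.6 ± 1.6 CPM. Lrp2, an endocytic receptor that can bind Hedgehog ligands, fell by 3.16 ± 0.30 on the log2 scale, from 5.35 to 8.28 CPM at 3w to 0.551 to 1.03 CPM at 7w. Among the transducers, Sufu, which restrains the Gli factors, rose from 16.8, 15.6, 19.4 and 18.3 CPM to 39.2, 36.2, 36.7 and 40.9 CPM (log2 change 1.06 ± 0.10, adjusted p = 5.7e-09). Smo, whose counts hold the endogenous gene and the transgene together, rose from 161 ± 13 to 232 ± 18 CPM, and Kif7, a ciliary regulator of the Gli factors, from 6.44 ± 1.1 to 10.8 ± 1.2 CPM. Arl13b, a small GTPase of the primary cilium, fell from 129 ± 16 to 82.3 ± 8.3 CPM. The ligands Shh and Ihh had 10 counts each over all 8 libraries and Dhh 24, and none was tested. In the 4 lists of Hedgehog genes, 25 of 35 genes were autosomal and tested, 10 of them higher at 7w and 3 lower. Their median log2 change was 0.22, against 0.01 for all genes tested. Called in either direction, these 25 genes stood near the share of all autosomal genes tested, 51.7% (26.5% higher and 25.2% lower). The same shares are the background of the later list counts in EpCAM-high cells. For the list counts in EpCAM-low cells the background is 46.9% of all autosomal genes tested, called in either direction. That share was not split by direction, so those counts are descriptions only.

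Ptch1, Gli1 and Gli2 fell in EpCAM-low cells of the same 2 library sets. Ptch1 fell there by 0.40 on the log2 scale (adjusted p = 0.00469), Gli1 by 1.05 (adjusted p = 6.62e-06) and Gli2 by 0.82 (adjusted p = 0.000112). The difference between the changes in the 2 gates, tested as an interaction in the same edgeR fit, was 1.41 ± 0.15 for Ptch1 (adjusted p = 2.09e-06), and 1.63 ± 0.18 for Gli1 and 1.63 ± 0.18 for Gli2 (both adjusted p = 3.52e-06). It passed in 1059 of 16091 genes (6.58%). Of the 25 Hedgehog genes 7 passed it, all with the more positive change in EpCAM-high cells, and Gas1 and Kif7 were among them. Lrp2 fell in both gates (log2 change -2.95 in EpCAM-low cells), and its difference of -0.21 did not pass (adjusted p = 0.891). Levels set beside the groups without a time label show WT cells at 19 ± 1.9 CPM of Ptch1 and 0.703 ± 0.28 of Gli1, and SmoM2 cells at 1390 ± 232 and 220 ± 35 CPM (SD, n = 6 each).

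**Figure D1:**
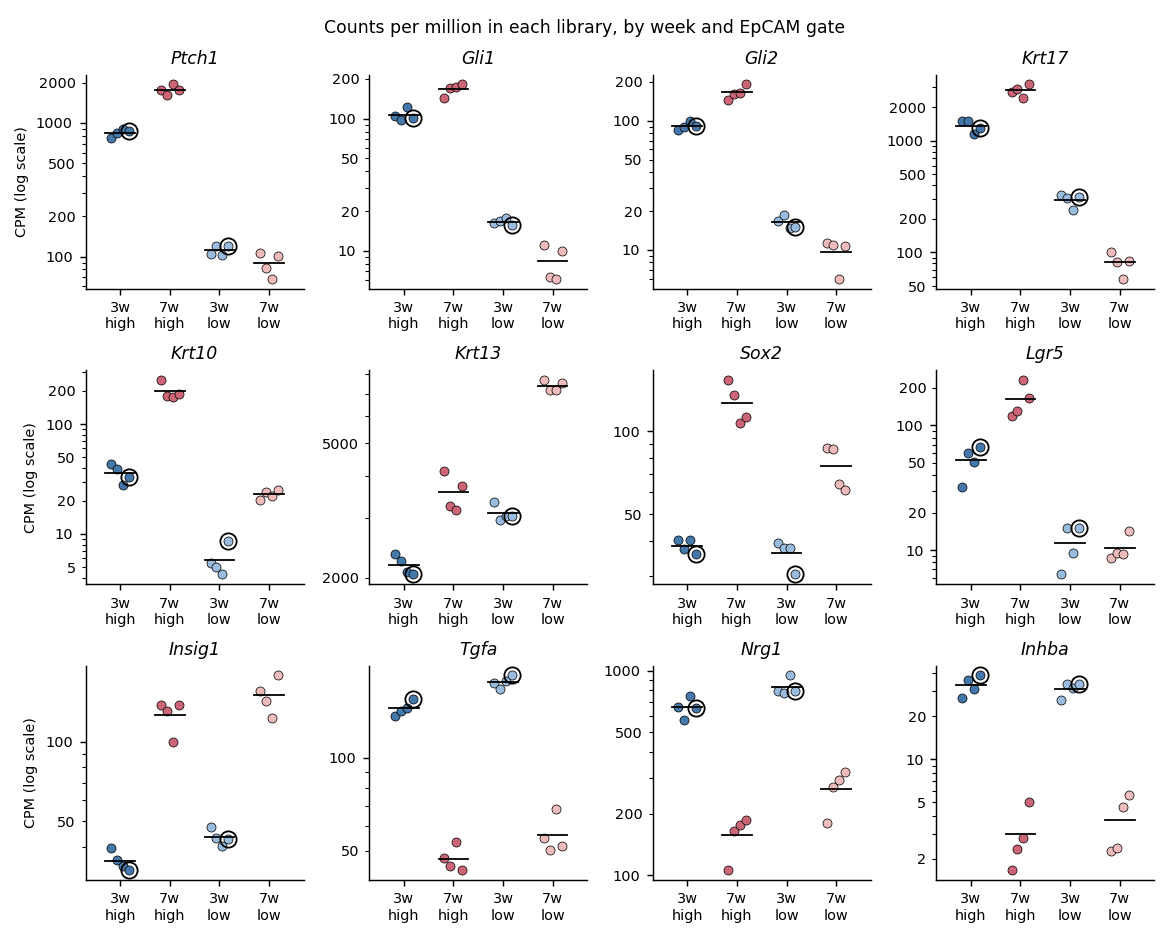
CPM on a log scale for 12 genes, with 1 point for each library, bars at the group means, and circles around the 3w library of each gate that holds Y-linked counts. In EpCAM-high cells the 7w libraries of Ptch1, Gli1 and Gli2 lie above the 3w libraries, in EpCAM-low cells the means lie lower at 7w, and Tgfa, Nrg1 and Inhba are lower at 7w in both gates.

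**Figure D2:**
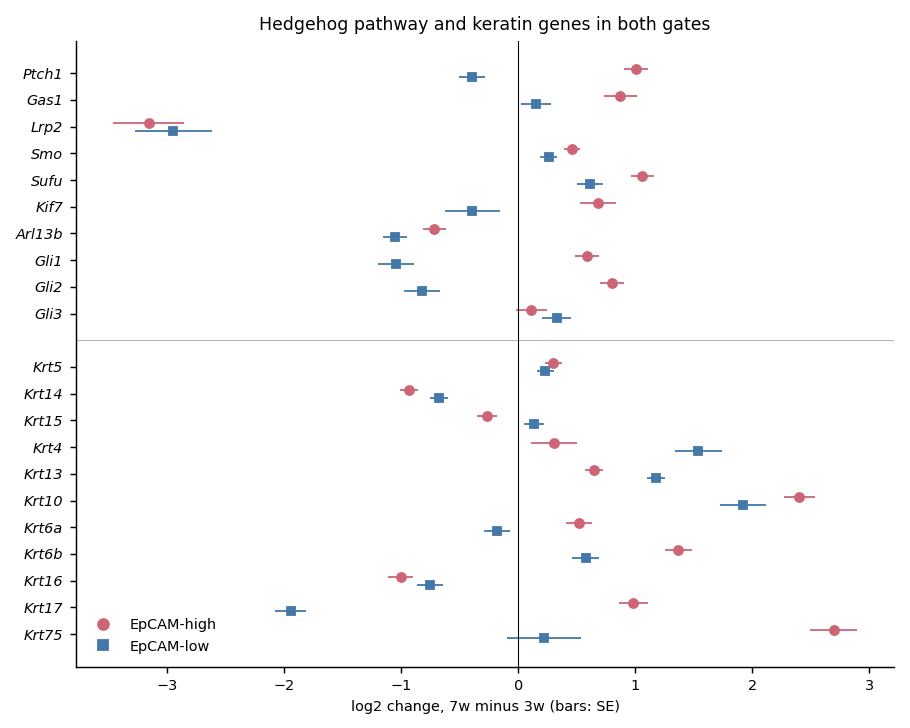
Log2 change from 3w to 7w with its SE for 10 Hedgehog genes and 11 keratins, in EpCAM-high cells (circles) and EpCAM-low cells (squares). Gli1, Gli2, Ptch1 and Krt17 stand on opposite sides of 0 in the 2 gates, whereas Lrp2, Krt14 and Krt10 moved alike.

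Basal genes moved in both directions. Sox2, a transcription factor of the foregut and of squamous progenitors, stood at 40.3, 37.4, 40.4 and 36.0 CPM at 3w and at 153, 135, 107 and 112 CPM at 7w. All 7w libraries were more than double any 3w library, and the log2 change was 1.65 ± 0.11 (adjusted p = 4.89e-11). Trp63, the master factor of stratified epithelia, rose from 589 ± 74 to 983 ± 91 CPM (log2 change 0.67 ± 0.08), and Cdh3, the basal P-cadherin, from 52.8 ± 3.7 to 89.8 ± 5.7 CPM. Krt5 rose by 0.30 ± 0.07 (adjusted p = 0.00152), a call that was lost with the GC correction (adjusted p = 0.0662) and in a fit with WT (adjusted p = 0.0797). Its partner Krt14 fell, from 1541, 1435, 1665 and 1570 CPM to 815, 996, 741 and 852 CPM (log2 change -0.93 ± 0.08, adjusted p = 1.36e-09). Krt15, a keratin of quiescent basal cells, overlapped between the times (911 to 1134 and 691 to 1002 CPM) at a log2 change of -0.26 ± 0.08 (adjusted p = 0.0114), which did not pass with the term for Y-linked counts, without 3w library 3 or without 7w library 3 (adjusted p = 0.26, 0.0604 and 0.0716). Of 23 basal genes 9 rose and 9 fell, with a median log2 change of -0.06.

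Genes of squamous differentiation mostly rose. Krt10, a keratin of cornified epithelia, stood at 43.2, 39.1, 27.8 and 33.0 CPM at 3w and at 253, 179, 175 and 187 CPM at 7w, a log2 change of 2.40 ± 0.14 (adjusted p = 4.76e-12). Library 1 was the highest of the 7w libraries, and the lowest was still 4 times any 3w library. Krt13 rose from 2184 ± 146 to 3581 ± 446 CPM, Krtdap, a secreted keratinocyte product, from 157 ± 16 to 371 ± 51, and Ppl, the cornified envelope protein periplakin, from 301 ± 39 to 627 ± 64 CPM. Krt4, the partner of Krt13, was at 341 to 454 CPM at 3w and at 341 to 926 CPM at 7w and did not pass (log2 change 0.30 ± 0.20, adjusted p = 0.202). It passed without 7w library 4, at 0.47 (adjusted p = 0.0497), and with no filter on low counts, at 0.35 (adjusted p = 1.1e-06). Of 44 genes in the list 42 were tested, of which 23 rose and 9 fell, with a median log2 change of 0.65. The number that fell was 5 without 3w library 2, 4 without 7w library 2 and 5 in the fit with WT. In EpCAM-low cells 25 rose and 9 fell, with a median of 0.76, and the interaction passed in 9 of the 42, all with the smaller or more negative change in EpCAM-high cells. Krt13 and Krt4 were among these 9, at differences of -0.53 (adjusted p = 0.00271) and -1.24 (adjusted p = 0.00673). Krt13 stood at 7756 ± 1644 CPM in WT.

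On the list of desmosome and cadherin genes, which build junctions that hold cells together, 14 of 20 tested rose and 3 fell. Dsg1a, the suprabasal desmoglein, rose from 15.4 ± 3.1 to 74.1 ± 12 CPM (log2 change 2.19 ± 0.16), and the plaque protein Pkp1 from 490 ± 37 to 1165 ± 111 CPM (1.18 ± 0.08). Cdh11, a cadherin best known from mesenchymal cells and placed on the same list, stood at 1.57, 1.18, 0.42 and 2.24 CPM at 3w and at 10.4, 12.0, 10.3 and 14.0 CPM at 7w (log2 change 3.02 ± 0.25, adjusted p = 1.24e-09). In EpCAM-low cells it averaged 0.407 and 0.242 CPM.

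Stress keratins, which appear in wounded and hyperproliferative epithelium and in hair follicles, rose except for Krt16. Krt17 stood at 1507, 1493, 1156 and 1288 CPM at 3w and at 2732, 2912, 2429 and 3203 CPM at 7w (log2 change 0.98 ± 0.12, adjusted p = 4.48e-07). In EpCAM-low cells it fell from 297 to 81.4 CPM on average, and the difference between the gates was 2.93 ± 0.18 (adjusted p = 4.08e-10). Krt6b rose by 1.37 ± 0.11 and Krt6a by 0.52 ± 0.11, and because these 2 genes are near-identical copies the split between them is uncertain. Krt16 fell from 313 ± 35 to 163 ± 21 CPM. Krt75, a keratin of the hair follicle companion layer, rose from 2.31 ± 0.57 to 15.8 ± 3.8 CPM (log2 change 2.70 ± 0.20) and stayed at 1.48 and 1.79 CPM in EpCAM-low cells.

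Wnt pathway genes rose in large part. Lgr5, the R-spondin receptor of intestinal and hair follicle stem cells, stood at 32.1, 60.5, 50.9 and 66.7 CPM at 3w and at 119, 130, 232 and 167 CPM at 7w, a log2 change of 1.57 ± 0.21 (adjusted p = 2.06e-06). The libraries of each time spread over about a doubling and did not overlap. Its relative Lgr6 rose from 11.1 ± 2.5 to 24.6 ± 6.9 CPM, the receptor Fzd1 from 55.4 ± 6.2 to 118 ± 7.6 and the co-receptor Lrp5 from 90.8 ± 5.1 to 161 ± 14 CPM. Rnf43, a target that removes Frizzled receptors from the surface, rose from 17.3 ± 1.7 to 37.6 ± 2.0 CPM. Wif1, a secreted inhibitor, stood at 3.00, 1.18, 0.70 and 4.34 CPM at 3w and at 27.4, 17.4, 16.3 and 21.9 CPM at 7w (log2 change 3.07 ± 0.28, adjusted p = 4.55e-09). No count of Wif1 was found in the WT libraries, and SmoM2 cells held 49.1 ± 42 CPM. Among 44 receptors, inhibitors and targets 29 were tested, 20 of them higher and 4 lower at 7w, with a median log2 change of 0.56 against 0.13 in EpCAM-low cells. Without 3w library 4 or 7w library 4 the number lower was 2.

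Of 11 Wnt ligands tested 6 rose and 1 fell (2 without 7w library 3). Wnt3a and Wnt9a rose from 2.04 ± 0.47 to 9.47 ± 1.4 CPM and from 4.19 ± 0.97 to 18.4 ± 1.7 CPM. Wnt4 and Wnt7b rose from 93.9 ± 15 to 209 ± 37 and from 50.8 ± 3.8 to 122 ± 6.0 CPM. The change differed between the gates for Lgr5 (1.77 ± 0.38, adjusted p = 0.00512), Lgr6, Fzd1 and Wnt3a, with more in EpCAM-high cells each time. For Wnt4, which rose by 1.04 in EpCAM-low cells, the difference was 0.04 and did not pass (adjusted p = 0.931).

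Other factors of progenitor state did not move together. Sox4 rose from 101, 105, 115 and 95.2 CPM to 184, 188, 230 and 197 CPM (log2 change 0.88 ± 0.09) and fell by 0.39 in EpCAM-low cells. Sox9, a factor of embryonic and columnar foregut and a Hedgehog-responsive gene in several tissues, fell from 118, 120, 128 and 155 CPM to 85.3, 62.7, 98.4 and 98.4 CPM (log2 change -0.65 ± 0.13, adjusted p = 0.000182). The fall was larger in EpCAM-low cells, at 1.27. Sox15 rose from 8.24 ± 1.3 to 16.9 ± 4.5 CPM. Of 9 Sox genes tested 5 rose and 1 fell. In the Notch list 7 of 15 rose and 3 fell, and Notch3 and the target Nrarp rose by 1.15 ± 0.10 and 1.05 ± 0.13.

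The ligands Tgfa and Nrg1 and the receptor Egfr of the EGF family fell, in a list in which 11 of 22 genes fell and 5 rose. Tgfa stood at 136, 141, 145 and 154 CPM at 3w and at 47.3, 44.5, 53.1 and 43.3 CPM at 7w, a log2 change of -1.68 ± 0.09 (adjusted p = 2.54e-12). Nrg1, a ligand of ERBB3 and ERBB4, stood at 666, 575, 747 and 654 CPM at 3w and at 106, 164, 175 and 187 CPM at 7w (log2 change -2.12 ± 0.15, adjusted p = 1.76e-10). Every 3w library of each gene was more than double the highest 7w library. The receptor Egfr fell from 512 ± 65 to 226 ± 19 CPM and the feedback inhibitor Spry2 from 66.5 ± 2.2 to 33.3 ± 4.5 CPM. The median log2 change of the 22 genes was -0.47. In EpCAM-low cells 10 fell and 4 rose, and 2 of the 22 passed the interaction. WT cells held 126 ± 31 CPM of Tgfa and 536 ± 71 of Egfr, and SmoM2 cells 67.8 ± 14 and 249 ± 57.

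In the BMP and TGF-beta family the activin subunit Inhba stood at 26.8, 36.2, 31.1 and 38.8 CPM at 3w and at 1.67, 2.34, 2.79 and 5.04 CPM at 7w, a log2 change of -3.50 ± 0.23 (adjusted p = 4.27e-11). Fst, the secreted activin antagonist, fell too, from 185, 228, 303 and 306 CPM to 27.0, 35.7, 56.7 and 48.0 CPM (-2.67 ± 0.22), as did the receptor Tgfbr2, from 110.0 ± 6.0 to 45.1 ± 7.2 CPM. The list as a whole was split, with 10 of 30 higher and 11 lower, a median of -0.01, and 14 lower and 2 higher in EpCAM-low cells.

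Itga2, Plaur and Adam8, which act in cell attachment and pericellular proteolysis, fell. Itga2, a collagen receptor subunit, stood at 49.9, 62.8, 45.5 and 73.2 CPM at 3w and at 3.48, 5.79, 6.17 and 3.24 CPM at 7w (log2 change -3.70 ± 0.25, adjusted p = 7.46e-11). The urokinase receptor Plaur fell from 141 ± 13 to 26.5 ± 8.8 CPM and the protease Adam8 from 96.9 ± 11 to 26.3 ± 4.1 CPM. Each of these 3 fell by 1.80 or more in EpCAM-low cells too. The list of matrix and protease genes was not lower as a whole, with 12 of 31 higher and 7 lower, and the gelatinase Mmp2 rose from 25.6 ± 4.5 to 72.6 ± 9.0 CPM. In EpCAM-low cells 5 rose and 15 fell, and 9 of the 31 passed the interaction, all with the more positive change in EpCAM-high cells.

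Of 18 interferon genes tested 9 fell and 2 rose, and of 7 MHC genes 5 fell and none rose. Gbp2, an interferon-induced GTPase, stood at 13.8, 27.1, 21.0 and 22.1 CPM at 3w and at 1.06, 1.24, 2.64 and 1.92 CPM at 7w (log2 change -3.65 ± 0.30, adjusted p = 9.28e-10), and Isg20 fell from 24.0 ± 5.3 to 9.04 ± 2.1 CPM. Nlrc5, the activator of MHC class I genes, stood at 25.9, 26.9, 32.2 and 26.2 CPM at 3w and at 3.79, 3.03, 3.96 and 1.44 CPM at 7w (log2 change -3.28 ± 0.22, adjusted p = 6.96e-11). H2-D1 fell from 115 ± 2.2 to 83.6 ± 2.3 CPM. B2m, the light chain of class I, fell by 0.58 (adjusted p = 0.00204), but by 0.36 and not past the threshold with the term for Y-linked counts (adjusted p = 0.113), and by 0.56 in a fit with WT (adjusted p = 0.0524). H2-Q4 fell as well, from 53.8 ± 8.4 to 24.0 ± 3.7 CPM, and its counts are uncertain because of near-identical copies. With the term for Y-linked counts, and in the fit with WT, 3 MHC genes fell, and without 7w library 1, 1 rose. Among interferon genes with a mean of at least 5 CPM 5 of 12 fell. The summed level of the interferon list overlapped between the times, at 300 to 329 CPM at 3w and 240 to 323 CPM at 7w.

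Il15ra, the receptor chain that presents IL-15, had the largest fall among the genes named here, from 14.8, 20.6, 16.8 and 18.3 CPM to 0.30, 0.55, 0.44 and 0.60 CPM (log2 change -5.20 ± 0.24, adjusted p = 4.41e-13). In EpCAM-low cells it fell by 3.16, and the difference passed (-2.04 ± 0.36, adjusted p = 0.000755). Tnfrsf1b, the second TNF receptor, fell by 3.14 ± 0.33, the NF-kappa-B inhibitor Tnfaip3 from 351 ± 32 to 181 ± 21 CPM, and the epithelial cytokine Tslp from 6.32 ± 0.93 to 1.38 ± 0.42 CPM. The chemokine Cxcl14 rose, from 2.58 ± 0.69 to 11.9 ± 1.8 CPM. Of 25 epithelial inflammation genes 6 rose and 7 fell, near the 26.5% and 25.2% of all genes tested.

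Genes of cholesterol and fatty acid synthesis rose almost without exception. Insig1, a sterol-controlled brake on the pathway and itself a target of SREBP, stood at 39.5, 35.7, 34.0 and 32.7 CPM at 3w and at 138, 131, 99.5 and 138 CPM at 7w (log2 change 1.77 ± 0.11, adjusted p = 1.92e-11). Lss, which closes the sterol ring, rose from 14.6 ± 2.5 to 59.0 ± 10 CPM (1.95 ± 0.15), Idi1, an enzyme of isoprenoid synthesis, from 28.2 ± 4.8 to 93.1 ± 13 CPM (1.66 ± 0.14), and Elovl4, which extends very long fatty acids, from 19.6 ± 1.4 to 93.5 ± 11 CPM (2.19 ± 0.14). Hmgcs1, an enzyme at the start of the pathway that was chosen after its values were seen, stood at 235, 247, 210 and 222 CPM at 3w and at 620, 529, 445 and 611 CPM at 7w (log2 change 1.21 ± 0.11). Of 27 genes 25 rose and none fell, with a median log2 change of 0.91. In EpCAM-low cells 23 rose and 1 fell with a median of 1.30, and 6 of the 27 passed the interaction with the smaller change in EpCAM-high cells and 1 with the larger. The level in WT was not low: Insig1 stood there at 97.3 ± 32 CPM and Lss at 64.7 ± 17.

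Since these genes moved together, the RefSeq promoter windows (GRCm38.p6, 250 bases before to 50 after a gene's start) of 3 of them are shown, 5′ to 3′ on the gene's strand. Capitals mark the letters CCAAT, a box bound by NF-Y, and CACCCCAC, the core of a sterol regulatory element, each in either orientation, so that ATTGG is CCAAT on the other strand.
Hmgcs1 (chr13:119690101-119690400, plus strand): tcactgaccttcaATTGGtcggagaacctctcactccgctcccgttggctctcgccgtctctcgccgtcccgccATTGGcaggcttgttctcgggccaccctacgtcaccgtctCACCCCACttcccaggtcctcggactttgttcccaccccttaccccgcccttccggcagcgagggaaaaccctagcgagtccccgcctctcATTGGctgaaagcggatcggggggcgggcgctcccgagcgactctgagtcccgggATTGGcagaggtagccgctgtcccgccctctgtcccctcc
Insig1 (chr5:28071162-28071461, plus strand): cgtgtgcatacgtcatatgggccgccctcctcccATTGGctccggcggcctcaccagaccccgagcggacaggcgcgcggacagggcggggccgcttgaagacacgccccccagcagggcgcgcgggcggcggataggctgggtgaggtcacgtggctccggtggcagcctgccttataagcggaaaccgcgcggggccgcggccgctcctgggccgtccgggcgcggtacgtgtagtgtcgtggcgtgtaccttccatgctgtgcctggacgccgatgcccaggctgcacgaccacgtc
Idi1 (chr13:8885356-8885655, plus strand): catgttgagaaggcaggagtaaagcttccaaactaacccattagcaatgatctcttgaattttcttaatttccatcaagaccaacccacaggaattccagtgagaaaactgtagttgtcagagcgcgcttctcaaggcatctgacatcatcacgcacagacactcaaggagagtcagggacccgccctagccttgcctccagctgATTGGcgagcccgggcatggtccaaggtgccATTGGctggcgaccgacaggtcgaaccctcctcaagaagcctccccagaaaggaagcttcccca
The Hmgcs1 window held 4 CCAAT matches and 1 of CACCCCAC, that of Insig1 1 CCAAT match and that of Idi1 2. Of the 27 genes 18 had a window in the table, and 14 of these (77.8%) held CCAAT, against 41.1% of all 27025 genes with a window. Those 27025 genes were taken whether or not they were tested here, so they are not a matched set. CACCCCAC was found in 2 of the 18 (11.1%) against 3.3% of all genes, and TATAAA in 0 against 15.7%. Of the 34 autosomal genes in the Hedgehog lists 27 had a window, and Gli1 was among those without one. Of these 27 genes 10 held CCAAT (37.0%), and the GLI site GACCACCCA was in none of them and in 0.29% of all genes. At so low a share, no match among 27 genes is the likely outcome and tells nothing about these genes. All 4 sets of letters were searched on both strands, the motifs share no overlap in these 3 windows, and a match describes the sequence only.

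Proliferation genes were higher in part. The replication licensing gene Mcm3 rose from 16.7, 22.1, 14.8 and 17.9 CPM to 30.8, 45.2, 28.6 and 46.8 CPM (log2 change 1.02 ± 0.17, adjusted p = 3.61e-05), the mitotic kinase Plk1 from 13.3 ± 3.0 to 27.6 ± 7.1 CPM, and the G1 cyclin Ccnd1, a known target of several growth pathways, from 64.2 ± 12 to 96.2 ± 5.6 CPM. Mki67, the common proliferation marker, was at 501 to 772 CPM at 3w and 516 to 772 CPM at 7w and did not pass (log2 change -0.08 ± 0.12, adjusted p = 0.575). Of 41 cell cycle genes 18 rose and 1 fell with a median of 0.31, and with the term for Y-linked counts 11 rose and 3 fell. Without 3w library 2, 4 fell, and without 7w library 2, 3 fell. EpCAM-low cells gave 22 and 0. Mycl, a MYC family factor, rose from 19.4 ± 1.5 to 64.7 ± 4.9 CPM.

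Immediate early genes, which respond within minutes to growth factors and also to tissue digestion, rose in 14 of 22 and fell in 5, and 9 rose in the fit with WT. Fos stood at 726, 739, 884 and 715 CPM at 3w and at 1862, 1686, 1780 and 1418 CPM at 7w, and Ier2 rose from 100.4 ± 2.0 to 210.1 ± 16 CPM. Heat shock and unfolded protein genes fell in 11 of 23 and rose in 2 (1 without 3w library 1 or 3, or without 7w library 1 or 4). Hsp90aa1 fell from 1098 ± 16 to 658 ± 39 CPM, the endoplasmic reticulum chaperone Hspa5 from 1279 ± 84 to 740.1 ± 123 and Xbp1, a factor of the unfolded protein response, from 222 ± 14 to 122 ± 20 CPM. EpCAM-low cells gave 11 higher and 6 lower in the first list and 0 higher and 7 lower in the second. Handling of the tissue is not given in the labels for each time, and its part in these values was not tested.

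Genes of redox and retinoid metabolism rose in 12 of 26 and fell in 6. Adh7, an oesophageal alcohol and retinol dehydrogenase, stood at 818, 688, 696 and 712 CPM at 3w and at 1758, 1640.0, 1750.0 and 2049 CPM at 7w (log2 change 1.24 ± 0.08, adjusted p = 1.81e-11). Aldh3a1 and Gclc, the latter the rate-limiting enzyme of glutathione synthesis, rose from 179 ± 13 to 385 ± 32 and from 158 ± 1.8 to 336 ± 21 CPM.

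Simple epithelial genes were divided. The tight junction genes Cgn and Cldn8 rose from 14.7 ± 1.8 to 44.3 ± 3.5 and from 14.1 ± 3.0 to 41.8 ± 5.5 CPM, the splicing factor Esrp1 rose by 0.31 ± 0.06, and Marveld3 and Epcam itself fell by 0.72 ± 0.12 and 0.27 ± 0.06. Krt18 fell at a low level, from 2.03 ± 0.35 to 0.837 ± 0.56 CPM (adjusted p = 0.0114), and not past the threshold with the term for Y-linked counts (adjusted p = 0.0982). Krt20, a keratin of gut and urothelium, overlapped between the times at 26.3 to 39.2 and 24.2 to 39.8 CPM. It stood at 0.994 ± 0.53 in WT and 38.6 ± 12 CPM in SmoM2 cells. The tetraspanin Upk1b of the urothelium rose from 2.87, 3.82, 2.80 and 1.71 CPM to 4.24, 6.89, 8.81 and 10.3 CPM (log2 change 1.39 ± 0.31, adjusted p = 0.000664), and the uroplakin-like gene Upk3bl from 16.7 ± 0.54 to 39.4 ± 6.5 CPM. Among fetal genes 4 of 8 tested fell and none rose (1 without 3w library 1 or without 7w library 2). Hmga1 fell from 91.6 ± 5.8 to 57.9 ± 3.9 CPM and Igf2bp3 from 8.87 ± 1.0 to 5.87 ± 1.9 CPM with overlapping libraries. The imprinted RNA H19 fell from 56.1, 89.1, 74.4 and 73.9 CPM to 43.2, 36.9, 24.5 and 38.0 CPM, while EpCAM-low cells averaged 198 and 230.1 CPM (difference -1.25 ± 0.21, adjusted p = 0.000355), and Plagl1 fell by 0.47 ± 0.07.

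In the IGF system, Pappa, the protease that frees IGF from its binding proteins, stood at 12.7, 14.9, 12.9 and 14.1 CPM at 3w and at 1.97, 1.79, 4.40 and 0.84 CPM at 7w (log2 change -2.69 ± 0.34, adjusted p = 7.22e-07). EpCAM-low cells averaged 33.4 and 35.0 CPM, and the difference was -2.69 ± 0.41 (adjusted p = 0.000142). The binding protein Igfbp3 fell in both gates (log2 changes -1.95 and -2.32), whereas Igfbp4 rose from 59.6 ± 7.7 to 153 ± 19 CPM and the adaptor Irs1 from 15.6 ± 1.9 to 36.9 ± 4.0 CPM. Guidance genes rose in 15 of 30 and fell in 8. The receptors Ephb2 and Epha7 rose from 91.7 ± 8.9 to 190.1 ± 19 and from 104 ± 5.9 to 216 ± 16 CPM, both with a greater change than in EpCAM-low cells (differences 1.07 ± 0.12, adjusted p = 3.52e-06, and 1.31 ± 0.17, adjusted p = 2.88e-05). WT cells held 0.183 CPM of Epha7. Sema3e and the semaphorin receptor Nrp2 fell by 2.52 ± 0.20 and 1.06 ± 0.10.

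The largest rises, among genes with at least 5 CPM on average in the higher group and no overlap, included genes that were nearly silent at 3w. Klk14, a peptidase of cornified layers, stood at 1.83, 2.5, 1.12 and 0.39 CPM at 3w and at 23.2, 20.5, 15.6 and 15.1 CPM at 7w (log2 change 3.60 ± 0.29, adjusted p = 8.64e-10). It was followed by the neurexin Nrxn3 (3.12 ± 0.35), Wif1, Cdh11, Sez6l (3.00 ± 0.35) and Tgm5, a transglutaminase of the cornified envelope (2.94 ± 0.24). The GABA transporter Slc6a11 rose from 22.7 ± 3.3 to 134 ± 22 CPM and stayed at 2.35 and 3.90 CPM in EpCAM-low cells, with 0.0203 CPM in WT. Dbp, a transcription factor under the circadian clock, stood at 1.30, 2.21, 1.26 and 0.92 CPM at 3w and at 2.27, 7.17, 13.7 and 16.4 CPM at 7w. Its 7w libraries differed widely, and library 1 was the lowest. The time of day of sampling is not given in the labels, and its part in this change was not tested.

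The largest falls after Il15ra were of Samd5 (-4.62 ± 0.44), Ccdc80 (-4.13 ± 0.30), Itga2, Gbp2, the phosphodiesterase Pde4b (-3.56 ± 0.18) and Inhba. Pde4b went from 36.5, 51.8, 47.4 and 56.5 CPM to 5.61, 5.10, 3.67 and 2.88 CPM. The LIM protein Fhl2 fell by 3.35 ± 0.29, the growth factor Gdnf by 2.89 ± 0.23 and the annexin Anxa3 from 79.7 ± 4.3 to 11.8 ± 0.55 CPM (-2.82 ± 0.10, adjusted p = 5.1e-15). All 15 of these largest falls were also falls in EpCAM-low cells, as the plot of the largest changes shows, whereas Cdh11, Wdr72 and Kcnma1, 3 of the 15 largest rises, had a negative value there that did not pass the test.

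**Figure D3:**
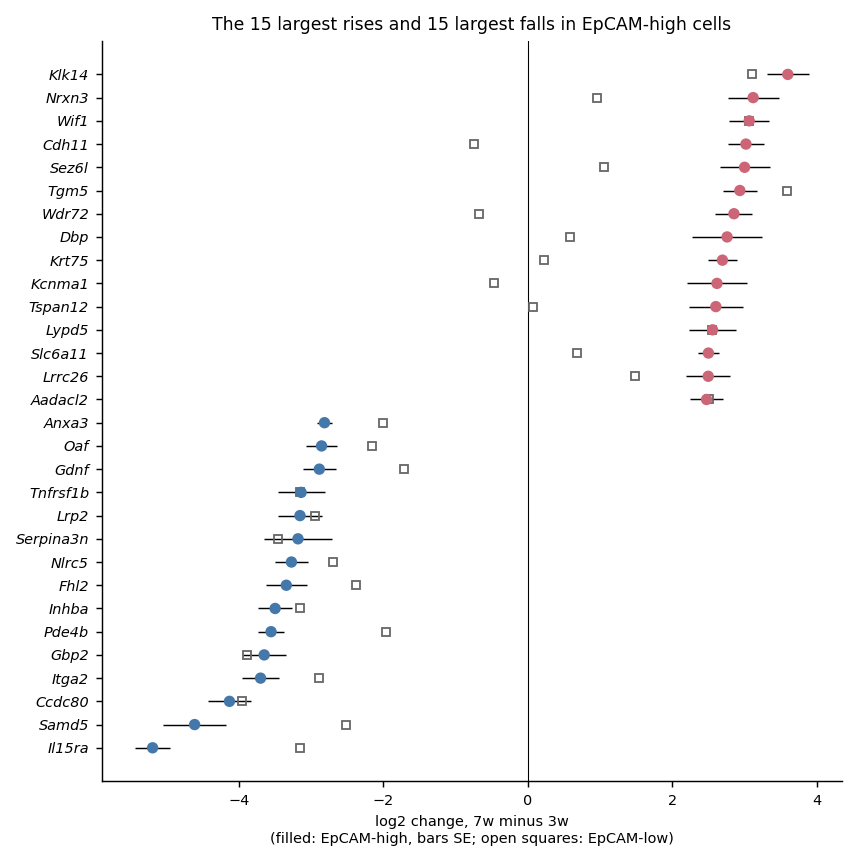
Log2 change from 3w to 7w in EpCAM-high cells (filled, with SE) for the 15 largest rises and the 15 largest falls, and the change of the same genes in EpCAM-low cells (open squares). The falls were shared by both gates, and for Cdh11, Wdr72 and Kcnma1 the EpCAM-low value was below 0.

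Across all 16091 genes the changes in the 2 gates resembled each other (Pearson r = 0.741 across genes, a description, since both gates share library sets and genes are not independent). In EpCAM-low cells 7545 genes (46.9%) differed between the times. Of the 8319 genes called in EpCAM-high cells 5463 were called in the same direction in EpCAM-low cells, 144 in the opposite direction, and 2712 were not called there. The interaction, in which a shift common to all libraries of a set cancels, passed for 615 genes with the more positive change in EpCAM-high cells and for 444 with the more negative. With a replicate block within each time it passed for 2153 genes, 1148 and 1005. Among these 1059 genes 108 rose in EpCAM-high and fell in EpCAM-low cells and 36 did the reverse. The most positive differences among genes that met the same limits of level and overlap included B4galt5 (3.86 ± 0.62, adjusted p = 0.000266), a galactosyltransferase that rose from 3.81 ± 0.88 to 11.2 ± 1.7 CPM, Cdh11 (3.76 ± 0.78, adjusted p = 0.00324) and the collagen Col14a1 (3.05 ± 0.72, adjusted p = 0.00963). The most negative included Pappa, Il15ra, the adhesion protein Emb (-1.84 ± 0.22, adjusted p = 9.51e-06) and Pde4b. Emb fell from 12.9, 14.4, 13.1 and 17.5 CPM to 5.46, 4.00, 3.38 and 2.16 CPM in EpCAM-high cells, and averaged 47.0 and 42.9 CPM in EpCAM-low cells.

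**Figure D4:**
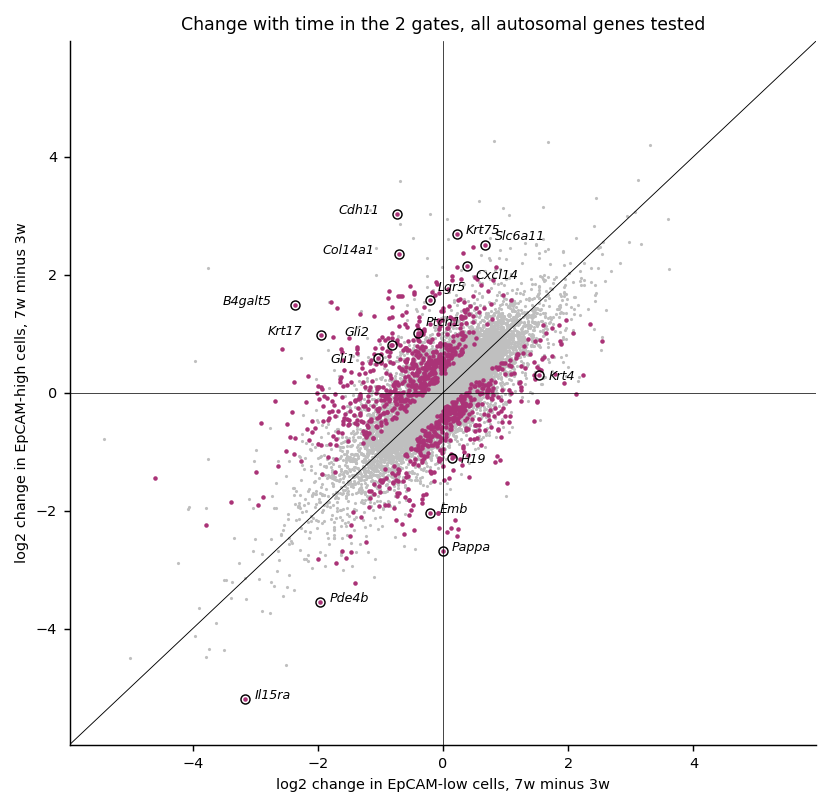
Log2 change from 3w to 7w in EpCAM-high cells (vertical) against EpCAM-low cells (horizontal) for 16091 autosomal genes, with the 1059 genes that passed the interaction test in purple and named examples circled. Ptch1, Gli1, Gli2, Krt17 and Cdh11 lie at the upper left, where the log2 change was above 0 in EpCAM-high and below 0 in EpCAM-low cells, although that of Cdh11 in EpCAM-low cells did not pass the test.

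Markers of other cell types moved in both directions. Fibroblast markers rose in 9 of the 11 tested of 15 and fell in 1, Dcn, but members that passed the filter only through the group where they were high had to differ. In the fit with WT 3 of 12 tested rose and none fell, and Dcn did not pass (log2 change -0.64, adjusted p = 0.163). Without 3w library 3 or 7w library 4, 2 fell. Col1a1 rose from 1.66 ± 0.57 to 4.69 ± 1.5 CPM and Dpt from 0.863 ± 0.17 to 2.7 ± 1.0, while Dcn fell from 31.1 ± 7.7 to 20.7 ± 2.0 CPM, and the summed level of the 15 genes was 40.7 to 59.8 CPM at 3w and 45.2 to 60.7 CPM at 7w. The 21 immune markers summed to 22.5 to 27.7 CPM at 3w and 17.2 to 20.9 at 7w, with Trdc, Tyrobp and Cd207 at 0 counts in all 8 libraries, and the 12 endothelial markers to 24.5 to 34.0 and 19.3 to 23.2 CPM. Their largest members were Cd68 (8.48 and 6.96 CPM on average) and Pecam1 (19.5 and 15.1). Other members moved both ways. Itgam fell from 83 to 26 counts in all and Flt1 from 145 to 17. Laptm5 rose from 4 to 20 counts, Cdh5 from 5 to 12 and Plvap from 2 to 9. The sums therefore do not speak for each marker. Neural and Schwann markers summed to 110.5 to 127 CPM at 3w and 116 to 144 CPM at 7w, of which Mbp fell from 74.6 to 57.6 CPM on average and Ngfr, also on the squamous basal list, rose from 35.3 to 66.8 CPM. Columnar and ciliated markers summed to 65.2 to 87.3 CPM at 3w and 23.9 to 64.2 CPM at 7w with no overlap, and most of this was Tppp3, which fell from 60.7 to 38.3 CPM on average (adjusted p = 0.0191). In bulk sorted cells, more cells of a type and more RNA per cell cannot be told apart. The part of these cells in the changes of Cdh11, Mmp2, Col14a1, Gbp2 and Il15ra was not tested.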

How the data were processed

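The deposited values were whole-number counts per gene, and the submitters' processing notes name STAR 2.5.3a, HTSeq and edgeR as the tools of the authors. Libraries were NuGEN Ovation Solo, per the labels' protocols. Gene identifiers were matched to GENCODE M21 for chromosome, GC share and length, and autosomal genes are reported. One edgeR 4.0.16 quasi-likelihood fit (R 4.3.3, TMM scaling, filterByExpr with a minimum count of 10 and a total of 15, two-sided) held 16 libraries, 3w and 7w in both EpCAM gates, and p-values were adjusted by Benjamini-Hochberg over 16621 genes. A gene was called at an adjusted p under 0.05. Fold changes are TMM-scaled, whereas CPM use plain totals. The SE of a log2 change or difference was taken as its absolute value divided by the square root of the F statistic. It can be unreliable where the value is near 0. Gates were compared by the interaction in the same fit. Library measures were compared by exact permutation. The fit was tested on simulated data with 200 changed genes, 197 of which passed the filter: 70.1% of 1.5-fold, 83.6% of 2-fold and 95.2% of 4-fold changes were recovered among 15687 genes, with 7 false calls. The simulation gave every gene the same spread and held no shift by library set, sex or GC share. These rates may therefore not hold for the real data.

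The members and gene lists (46 lists) were chosen with earlier results of these data known. Genes named were a set of anchors, up to 4 called genes of smallest p in each list, the 15 largest folds in each direction with a mean of 5 CPM or more at the higher time whose libraries did not overlap, and the 5 largest differences between gates in each direction, of which fewer may be named, and some items are not reported here; Hmgcs1 and Gli3, and genes given only as markers, fall outside it. Alternatives were other scalings, other filters, DESeq2 1.42.0, a robust fit, fewer or more libraries, a replicate block, leaving out each library, and, chosen after seeing the data, a term for Y-linked counts and a GC correction. Same-numbered libraries did not deviate together between times (r = -0.0681 to 0.0742). Between gates they did in all 4 pairs at 3w (r = 0.124 to 0.157) and in 3 of 4 at 7w (0.137 to 0.18, and 0.0536 for library 4). The labels do not tie the numbers to animals, and the fit has no block, so the interaction is also given with a block.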

Additional observations from a re-analysis of the deposited data

Results flagged for a closer look

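For 41 of the 127 genes examined, the change from 3w to 7w differed between the EpCAM gates by the edgeR interaction test, 28 with the more positive change in EpCAM-high cells. Over all autosomal genes 6.58% passed, and the 127 include genes chosen for the size of their change or of this difference. In the Hedgehog pathway the log2 differences, EpCAM-high minus EpCAM-low, were 1.63 for Gli1, 1.63 for Gli2, 1.41 for Ptch1, 0.72 for Gas1 and 1.075 for Kif7. Among epithelial and progenitor genes they were 2.93 for Krt17, 2.48 for Krt75, 0.79 for Krt6b, 0.70 for Krt6a, 0.69 for Sox2, 1.26 for Sox4, 0.62 for Sox9, 0.57 for Cdh3 and 0.35 for Epcam. The gates were sorted on the product of Epcam, so the difference for Epcam is not independent of the sort. Wnt genes gave 1.77 for Lgr5, 1.39 for Lgr6, 0.61 for Fzd1 and 1.29 for Wnt3a. Other positive differences were 0.82 for Igfbp4, 0.81 for Irs1, 3.76 for Cdh11, 1.07 for Ephb2, 1.31 for Epha7, 1.77 for Cxcl14, 0.46 for Adh7, 1.82 for Slc6a11, 3.86 for B4galt5 and 3.05 for Col14a1. Negative differences were -0.40 for Krt15, -1.235 for Krt4, -0.53 for Krt13, -0.45 for Notch3, -2.69 for Pappa, -2.04 for Il15ra, -0.82 for H2-Q4, -0.66 for Tnfaip3, -1.25 for H19, -1.60 for Pde4b, -1.18 for Gdnf, -0.81 for Anxa3 and -1.84 for Emb. Some passed the interaction test narrowly, with adjusted p = 0.0499 for Sox9, 0.0474 for Notch3, 0.045 for Krt15 and 0.0421 for Cxcl14. The alternative fits were not checked for these differences gene by gene.

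Of 264 groups of 4 values, 16 held a library far from the other three by Dixon's criterion, which chance gives in about 1 of 20 groups. At 7w, library 1 was lowest for Arl13b (70 CPM) and Slc6a11 (101.7 CPM) and highest for Krt4 (925.8 CPM) and Krt10 (252.6 CPM), and library 3 was highest for Dcn (23.63 CPM). At 3w, library 3 was lowest for Krtdap (132.6 CPM), Tgm5 (0.979 CPM) and Sema3e (10.21 CPM) and highest for Nlrc5 (32.17 CPM) and Fos (883.6 CPM). Library 1 at 3w was highest for Pkp1 (545.9 CPM) and B2m (182.7 CPM) and lowest for H2-Q4 (41.25 CPM), and library 2 was highest for Samd5 (6.031 CPM). The mitochondrial share reached 2.833% in 1 library at 3w, and the share of the 100 most abundant genes was lowest, at 23.2%, in 1 library at 7w.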

How the results depend on the processing

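The number of genes called in EpCAM-high cells stayed within 1.5 times of 8319 under the other scalings, filters and tools, from 6347 with a term for Y-linked counts to 8634 with no filter, and none of the 8319 that was called again changed direction. Requiring an absolute log2 change of at least 1 left 1783 genes, 816 higher and 967 lower. A replicate block gave 8616 genes, and changed the call of no named gene. The interaction was less stable: with a replicate block within each time it passed for 2153 genes (1148 more positive and 1005 more negative in EpCAM-high cells), and with WT in the fit (22 libraries) for 385 (257 and 128). The cause was not tested. Without each library in turn, 7634 to 8300 genes were called (4070 to 4406 higher, 3564 to 3894 lower), 6735 to 7331 in EpCAM-low cells, and 847 to 1116 by the interaction (493 to 651 and 308 to 465). Time stays joined to library set, and mostly to sex. Genes of a few CPM rest on few counts per library and are the least precise.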
